A study of Mus musculus with 20 samples.

Results

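The genes described here encode the mechanotransduction machinery of the hair bundle and the links that pull on it: *Tmc1*, *Tmc2*, *Tmie*, *Lhfpl5*, *Cib2*, *Cib3*, *Cdh23*, *Pcdh15*, *Loxhd1* and *Ush1c*. They were chosen by name from the 25655 genes of the deposited tables, in which all 10 were listed. RNA of utricles from female C57BL/6J mice was measured 4 weeks after surgery performed at 8 weeks of age. The 4 groups, of 5 libraries each, were sham operation with a vehicle pellet (sham + v, replicates 1 to 5), ovariectomy with a vehicle pellet (OVX + v, replicates 6 to 10), ovariectomy with a pellet of 50 µg estradiol over 60 days (OVX + E2, replicates 11 to 15) and ovariectomy with a pellet of 2.4 mg raloxifene over 60 days (OVX + RAL, replicates 16 to 20). All mice were of the same strain and sex and carried a pellet, and the labels name no transgene. Neither the labels nor the methods of the study state whether a library held the utricles of 1 mouse or of several, so the p-values given here measure the spread between these libraries.

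Hair cells of the utricle detect gravity and linear acceleration through bundles of stereocilia of graded height. A tip link runs from the top of each stereocilium to the side of its taller neighbour, with CDH23 forming its upper and PCDH15 its lower part, and tension on it opens a channel at the lower end. TMC1 and TMC2 form the pore of that channel, TMIE and LHFPL5 are membrane proteins that join it to PCDH15, and CIB2 and CIB3 are calcium-binding proteins that bind the TMC proteins. USH1C, or harmonin, is the scaffold that anchors CDH23 at the upper end, and LOXHD1 is a protein of repeated PLAT domains needed for transduction in mature hair cells. Loss of most of these proteins causes deafness, in several cases with vestibular dysfunction.

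On the GRCm39 assembly used for the tables, *Tmc2* lies at chr2:130037114-130106365, *Ush1c* at chr7:45844774-45887927, *Cib3* at chr8:72958179-72966840, *Cib2* at chr9:54452078-54467502 and *Tmie* at chr9:110694779-110709181. *Cdh23* lies at chr10:60138527-60532269, *Pcdh15* at chr10:72935174-74485569, *Lhfpl5* at chr17:28794615-28804653, *Loxhd1* at chr18:77369654-77530626 and *Tmc1* at chr19:20760822-20931566. *Tmc2*, *Pcdh15*, *Lhfpl5* and *Loxhd1* are on the plus strand and the others on the minus strand. The canonical GENCODE vM39 transcripts range from 4 exons in *Lhfpl5* to 66 in *Cdh23*. The kit reads the 3′ ends of transcripts, and of the 338 windows of 63 nucleotides in the last 400 nucleotides of each canonical transcript, 0 occurred in another gene. This covers the canonical ends only, which were not always those of the counted genes. The *Ush1c* transcript ended at 45843621, beyond the counted gene. Those of *Lhfpl5* (28802567) and *Pcdh15* (74480209) ended short of it. The annotated end of *Cib2* alone overlapped a gene on the opposite strand, *Sh2d7*, and the strand setting of the counting is not given in the sources used here. One of the common polyadenylation signals AATAAA and ATTAAA stood within 60 nucleotides of the end in the canonical transcripts of *Tmc1*, *Tmie* and *Cib2*. In those of the other 7 genes neither was found in that window.

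Estradiol and raloxifene both bind the estrogen receptors, which recognise the letters GGTCA or their palindrome. RefSeq promoter sequences (GRCm38.p6, 250 bases before to 50 after the start site) matched 8 of the 10 genes, all but *Tmc2* and *Loxhd1*. The sequences of 4 are shown in lower case, for the pair of most abundant genes and for the *Cib3* and *Cib2* paralogs that differed in level, with matches to GGTCA or its reverse complement TGACC in capitals.

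Tmc1 promoter, chr19:20954153-20954452, minus strand: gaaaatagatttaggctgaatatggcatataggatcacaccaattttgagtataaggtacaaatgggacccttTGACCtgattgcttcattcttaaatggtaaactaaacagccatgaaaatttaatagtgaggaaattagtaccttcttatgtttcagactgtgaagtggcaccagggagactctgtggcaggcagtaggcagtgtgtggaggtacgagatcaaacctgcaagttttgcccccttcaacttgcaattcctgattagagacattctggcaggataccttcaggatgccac

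Ush1c promoter, chr7:46238441-46238740, minus strand: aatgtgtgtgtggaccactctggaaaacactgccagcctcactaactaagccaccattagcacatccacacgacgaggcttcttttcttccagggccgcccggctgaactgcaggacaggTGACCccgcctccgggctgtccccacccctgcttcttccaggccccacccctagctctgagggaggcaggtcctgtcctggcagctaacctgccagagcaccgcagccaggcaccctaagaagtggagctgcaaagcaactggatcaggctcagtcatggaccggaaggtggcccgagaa

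Cib3 promoter, chr8:72212788-72213087, minus strand: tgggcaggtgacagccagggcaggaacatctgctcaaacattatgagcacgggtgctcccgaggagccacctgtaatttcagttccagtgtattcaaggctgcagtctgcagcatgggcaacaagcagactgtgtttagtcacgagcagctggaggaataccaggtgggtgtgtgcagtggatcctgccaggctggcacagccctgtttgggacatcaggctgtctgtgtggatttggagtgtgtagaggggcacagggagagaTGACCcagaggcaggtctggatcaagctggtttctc

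Cib2 promoter, chr9:54560141-54560440, minus strand: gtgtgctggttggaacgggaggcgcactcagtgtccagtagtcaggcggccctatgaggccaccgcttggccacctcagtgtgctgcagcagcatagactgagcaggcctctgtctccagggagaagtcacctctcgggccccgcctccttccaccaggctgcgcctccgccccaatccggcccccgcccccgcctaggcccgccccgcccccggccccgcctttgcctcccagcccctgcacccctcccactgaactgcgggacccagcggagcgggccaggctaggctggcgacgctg

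The letters GGTCA on either strand occurred in 5 of the 8 promoters, those of *Tmc1*, *Ush1c*, *Cib3*, *Tmie* and *Cdh23*, and in 40.5% of all 32851 RefSeq promoters of this length. The match lay 177 bases before the start site in *Tmc1* (position -177), at -130 in *Ush1c*, at -244 in *Tmie*, at -151 in *Cdh23* and at 15 after the start in *Cib3*. The full palindrome, GGTCA and TGACC separated by any 3 bases, which contains the shorter motif on both strands, was in none of the 8 (0) and in 0.0700% of all promoters. The E-box CANNTG was in 7 of the 8 against 72.3% of all, and the GC box GGGCGG in 4 of the 8 against 35.7%. *Pcdh15* was the 1 promoter with TATAAA, a motif of 13.6% of all promoters. These matches describe letters in a window and were not tested as binding sites.

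The libraries held 1123053 to 2081747 counts, so that 3 counts, taken as the lowest detected level, made 1.44 to 2.67 CPM (counts scaled to equal library totals). All 12 hair cell marker genes examined were detected in at least 1 library, with sums of 1763 ± 465 CPM in the sham + v, 1554 ± 363 in the OVX + v, 1766 ± 471 in the OVX + E2 and 1565 ± 366 CPM in the OVX + RAL libraries (mean ± SD, n = 5). Of these markers, *Myo6*, *Kcna10*, *Pou4f3*, *Gfi1*, *Cabp2*, *Otof* and *Lhx3* had 3 counts or more in all 20 libraries. The others did not, and *Chrna10* reached 3 counts in 2, 2, 1 and 2 libraries of the groups in the same order. Single libraries held 8 to 12 of the 12 at that level. Markers of supporting cells, Schwann cells and melanocytes were detected too, so that fewer hair cells in a library and less RNA per hair cell cannot be told apart. One library, OVX + E2 replicate 14, had the smallest total (1123053 counts) and the fewest genes with a count (7427). The OVX + E2 group was the shallowest, with 1123053 to 1507667 counts and 7427 to 9680 genes with a count, against 1435156 to 2019032 counts and 10004 to 10694 genes in OVX + v. It did not overlap OVX + RAL in either measure (1702313 to 2081747 counts, 10103 to 10290 genes), and the part of depth in the comparisons was not tested.

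At the level of the whole machinery, *Ush1c* and *Tmc1* were the most abundant genes, a middle group of 4 channel-complex and bundle genes followed, and the tip-link cadherins and *Cib2* were sparse. Because each transcript gives reads from its 3′ end only, CPM was compared between genes without division by length. Reads from an end outside the annotated gene would not be counted. The part of the annotated ends in this order, and in the low counts of *Tmc2* and *Cdh23*, was not tested. The mean over the 20 libraries was 365 CPM for *Ush1c*, which ranked 349 among the 25655 genes, and 114 CPM for *Tmc1*, which ranked 1461. It was 62.3 CPM for *Tmie*, 47.1 for *Cib3*, 40.4 for *Lhfpl5* and 35.03 for *Loxhd1*. *Pcdh15* had 17.01 CPM, *Cib2* 8.68, *Cdh23* 6.27 and *Tmc2* 0.112 CPM. *Ush1c*, *Tmc1*, *Tmie* and *Lhfpl5* reached 3 counts in all 20 libraries, *Cib3* in 19, *Loxhd1* in 18, *Cib2* in 12, *Pcdh15* in 11, *Cdh23* in 5 and *Tmc2* in 1.

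The 9 neighbouring pairs in this order, and the paralog pairs *Tmc1* with *Tmc2* and *Cib3* with *Cib2*, were compared within libraries on log2(CPM + 1) by a two-sided permutation test that flips signs at random (100000 resamples, 11 pairs, Benjamini-Hochberg adjustment), a test added after the levels were seen. *Ush1c* exceeded *Tmc1* in 20 of 20 libraries, by 1.85 ± 0.973 on the log2 scale (SD, n = 20), with an adjusted p of 5.5e-05 from an unadjusted p of 1e-05, the smallest the resamples can give. *Tmc1* exceeded *Tmie* in 16 of 20 libraries (log2 difference 1.08 ± 1.91, adjusted permutation p = 0.0451), and *Loxhd1* exceeded *Pcdh15* in 14 libraries and was lower in 5 (2.09 ± 2.90, adjusted permutation p = 0.0141). *Pcdh15* was at 0 in 8 libraries and *Loxhd1* in 2, so the size of their difference depends in part on the 1 added to CPM. Within the run *Tmie*, *Cib3*, *Lhfpl5* and *Loxhd1*, no neighbours differed beyond their spread (adjusted permutation p = 0.479, 0.919 and 0.252), nor did *Pcdh15* and *Cib2* (0.902), *Cib2* and *Cdh23* (0.221), or *Cdh23* and *Tmc2* (0.0722).

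**Figure D1:**
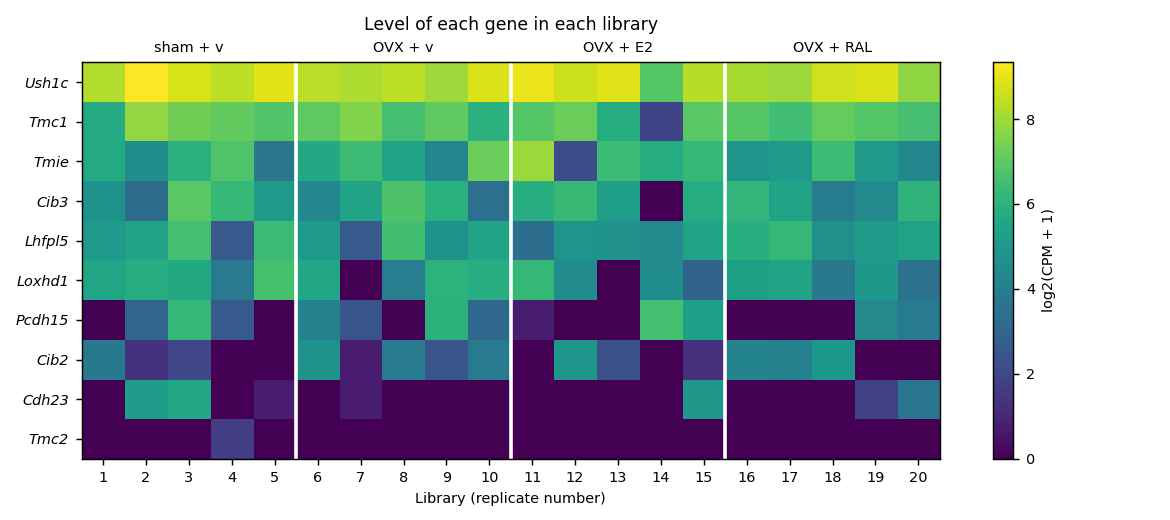
Level of the 10 genes in each of the 20 libraries, as log2(CPM + 1) on the colour scale, with libraries by replicate number on the horizontal axis and white lines between the 4 groups. The *Ush1c* row is bright in all libraries and lowest in replicate 14, the *Tmc1* row drops to 2.67 CPM in that library, and the *Cdh23* and *Tmc2* rows are dark in most libraries.

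The channel subunit *Tmc1* was measured at 51.1, 227, 156, 134 and 111 CPM in the sham + v libraries and at 129, 190, 94.7, 132 and 61.3 CPM in the OVX + v libraries. Its values were 117, 152, 54.5, 2.67 and 123 CPM in the OVX + E2 group and 117, 87.8, 139, 114 and 95.6 CPM in the OVX + RAL group. The lowest value, from 3 counts, was that of OVX + E2 replicate 14, and the OVX + RAL libraries lay closest together. The group means were 136 ± 64.3, 121 ± 48.0, 89.7 ± 60.2 and 111 ± 20.1 CPM (SD, n = 5 each), and every pair of groups overlapped. Against OVX + v, the log2 fold change was 0.17 (SE 0.470, 95% interval -0.76 to 1.09) in sham + v, -0.43 (SE 0.646, -1.70 to 0.83) in OVX + E2 and -0.13 (SE 0.445, -1.01 to 0.74) in OVX + RAL, with adjusted p of 1.000 in each (edgeR's quasi-likelihood test). With each library left out in turn, the change in OVX + E2 ran from -0.71 to -0.12, and the latter was the value without replicate 14.

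*Tmc2*, the second pore-forming subunit, had 4 counts in sham + v replicate 4 (2.24 CPM) and 0 counts in each of the other 19 libraries. A count of 0 allows up to 3 counts in a library, which is 1.44 CPM in the deepest and 2.67 CPM in the shallowest. *Tmc1* was higher than *Tmc2* in 20 of 20 libraries, and no size is given for a difference from a gene at 0 in 19 of them. *Tmc2* did not reach the 10 counts needed for testing between groups.

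*Tmie* was measured at 50.7, 23.1, 61.0, 109 and 11.9 CPM in sham + v and at 49.2, 84.1, 42.5, 19.3 and 145 CPM in OVX + v. The OVX + E2 libraries had 240, 3.78, 84.2, 53.4 and 74.4 CPM, and the OVX + RAL libraries 28.8, 32.9, 82.8, 32.0 and 18.7 CPM. The OVX + E2 group thus held both the highest and the lowest value of the series. Group means were 51.2 ± 38.0, 68.0 ± 48.9, 91.2 ± 88.8 and 39.04 ± 25.1 CPM, all overlapping. The largest difference of *Tmie* was between OVX + E2 and OVX + RAL, with a log2 fold change of 1.22 (SE 0.906, 95% interval -0.55 to 2.999, adjusted p = 0.808 by edgeR). Against OVX + v it was -0.41 in sham + v, 0.42 in OVX + E2 and -0.80 (SE 0.728, -2.23 to 0.63) in OVX + RAL, none past the threshold. With a library left out, the difference of OVX + E2 from OVX + RAL ran from 0.47 to 1.70 and that of OVX + RAL from OVX + v from -1.27 to -0.32.

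*Lhfpl5*, the tetraspan protein that ties PCDH15 to the channel, had 31.7, 42.5, 93.0, 5.03 and 82.9 CPM in sham + v and 33.0, 5.02, 89.0, 26.7 and 43.2 CPM in OVX + v. In OVX + E2 it had 9.29, 27.2, 25.6, 20.5 and 42.8 CPM, and in OVX + RAL 58.1, 72.7, 24.7, 34.6 and 40.8 CPM. The OVX + E2 group had the lowest mean, but its values lay within the range of sham + v and of OVX + v. The group means were 51.0 ± 36.6, 39.4 ± 31.1, 25.1 ± 12.1 and 46.2 ± 19.2 CPM. The log2 fold change of OVX + E2 was -0.65 (SE 1.43, 95% interval -3.46 to 2.16) against OVX + v and -0.88 (SE 1.33, -3.49 to 1.73) against OVX + RAL, with adjusted p of 1.000 in both (edgeR). With a library left out the first ran from -0.93 to -0.11, the latter without OVX + v replicate 8, and the second from -1.16 to -0.66.

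The calcium-binding paralogs *Cib3* and *Cib2* differed in level from each other within libraries. *Cib3* was at 26.3, 8.92, 121, 76.0 and 31.8 CPM in sham + v and at 19.3, 42.7, 105, 61.9 and 9.76 CPM in OVX + v. It was at 58.4, 80.1, 36.1, 0 and 53.3 CPM in OVX + E2, where the 0 was again replicate 14, and at 68.9, 40.9, 14.1, 20.5 and 66.8 CPM in OVX + RAL. Over the 4 groups its means were nearly level, at 52.9 ± 45.6, 47.8 ± 38.1, 45.6 ± 29.9 and 42.2 ± 25.4 CPM.

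*Cib2* was too sparse for CPM alone to be read, with counts of 26, 3, 5, 0 and 0 in sham + v, 43, 1, 24, 9 and 19 in OVX + v, 0, 38, 5, 0 and 2 in OVX + E2 and 34, 29, 52, 0 and 0 in OVX + RAL. The means were 3.44 ± 5.30, 11.7 ± 10.1, 6.82 ± 12.3 and 12.7 ± 12.97 CPM. *Cib3* was higher than *Cib2* in 16 libraries and lower in 3 (log2 difference 2.85 ± 2.34, SD, n = 20, adjusted permutation p = 0.000183), and both were at 0 in OVX + E2 replicate 14. *Cib2* was at 0 in 6 libraries, so the size of this difference depends in part on the 1 added to CPM. Against OVX + v, *Cib3* had log2 fold changes of 0.14 (SE 0.873), -0.07 (SE 1.13) and -0.18 (SE 0.818) in sham + v, OVX + E2 and OVX + RAL, but the OVX + E2 value was 0.25 without replicate 14. For *Cib2* the same values were -1.75 (SE 2.58), -0.78 (SE 2.50) and 0.12 (SE 1.92), and its 95% interval in sham + v spanned -6.80 to 3.30. The first 2 values of *Cib2* ran from -3.29 to -1.19 and from -3.04 to -0.22 with a library left out.

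Of the tip-link cadherins, *Cdh23*, the upper part of the link, had 0, 64, 79, 0 and 1 counts in sham + v, 0, 1, 0, 0 and 0 in OVX + v, 0, 0, 0, 0 and 42 in OVX + E2 and 0, 0, 0, 5 and 24 in OVX + RAL. The sham + v replicates 2 and 3 held most of the reads of their group, and the OVX + v group held 1 read in all. The means were 16.2 ± 22.4, 0.125 ± 0.281, 5.89 ± 13.2 and 2.83 ± 4.99 CPM. The sham + v and OVX + v groups overlapped at 0, and no fold is given against a group with 1 read. The unadjusted p of that comparison was 0.0350 and the adjusted p 0.363 by edgeR, and the adjusted p against OVX + v was 0.699 for OVX + E2 and 0.924 for OVX + RAL.

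*Pcdh15*, the lower part of the link, had 0, 14, 123, 9 and 0 counts in sham + v, 25, 7, 0, 126 and 11 in OVX + v, 1, 0, 0, 105 and 54 in OVX + E2 and 0, 0, 0, 38 and 27 in OVX + RAL. In each of the first 3 groups 1 library, replicates 3, 9 and 14, held more than 100 reads. Group means were 17.1 ± 31.4, 18.01 ± 25.5, 26.4 ± 40.9 and 6.58 ± 9.34 CPM. The log2 fold changes against OVX + v were -0.08 (SE 1.75) in sham + v, 0.55 (SE 1.77) in OVX + E2 and -1.44 (SE 1.96) in OVX + RAL, and OVX + E2 exceeded OVX + RAL by 1.99 (SE 2.09, 95% interval -2.10 to 6.08), with adjusted p of 1.000 in each (edgeR). Without replicate 14, which held 105 of the OVX + E2 reads, the value of OVX + E2 was -0.90 against OVX + v and 0.54 against OVX + RAL. Without OVX + v replicate 9, which held 126 reads, the value of OVX + RAL against OVX + v was -0.068, and with any library left out it lay between that and -2.44.

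The 5 libraries with 3 or more reads of *Cdh23* were all among the 11 with 3 or more reads of *Pcdh15*. The other 6 of those 11 lacked *Cdh23* at that level, and 9 libraries lacked both. This comparison was chosen after the counts were seen and is a description. The 5 libraries had 9375 to 10290 genes with a count and 1425679 to 2081747 counts in total, against 7427 to 10694 genes and 1123053 to 2053255 counts in the other 15. The Spearman correlation of the levels was 0.42 over the 20 libraries. Depth and tissue makeup differ between libraries, and their part in it was not tested.

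*Ush1c*, the harmonin scaffold, was measured at 307, 645, 432, 337 and 496 CPM in sham + v and at 328, 290, 336, 249 and 460 CPM in OVX + v. The OVX + E2 libraries had 531, 396, 472, 117 and 319 CPM, and the OVX + RAL libraries 276, 248, 402, 444 and 221 CPM. Replicate 2 of sham + v was highest and replicate 14 of OVX + E2 lowest. The means were 443 ± 135, 333 ± 79.0, 367 ± 161 and 318 ± 98.8 CPM, and the groups overlapped in every comparison. *Ush1c* had the narrowest intervals of the tested genes, with log2 fold changes against OVX + v of 0.41 (SE 0.295, 95% interval -0.16 to 0.99, adjusted p = 0.888) in sham + v, 0.14 (SE 0.343, -0.53 to 0.81) in OVX + E2 and -0.06 (SE 0.299, -0.65 to 0.53) in OVX + RAL by edgeR. With each library left out in turn, the change ran from 0.24 to 0.56 in sham + v. In OVX + E2 it ran from -0.029 to 0.37, the latter without replicate 14.

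*Loxhd1* was measured at 44.3, 55.6, 49.8, 12.9 and 97.5 CPM in sham + v and at 48.0, 0, 14.7, 63.9 and 55.0 CPM in OVX + v. Its values were 73.6, 21.9, 0, 22.3 and 7.01 CPM in OVX + E2 and 38.6, 42.5, 12.3, 30.4 and 10.1 CPM in OVX + RAL. The sham + v mean was the highest, yet its lowest library lay below 4 of the 5 OVX + v libraries. Means of 52.0 ± 30.3, 36.3 ± 27.5, 24.96 ± 28.9 and 26.8 ± 14.9 CPM gave log2 fold changes against OVX + v of 0.52 (SE 0.959), -0.54 (SE 1.48) and -0.44 (SE 1.06), with adjusted p of 1.000 in each (edgeR). With a library left out these ran from 0.16 (without sham + v replicate 5) to 0.82, from -1.50 (without OVX + E2 replicate 11) to -0.22 and from -0.76 to -0.13 (without OVX + v replicate 9).

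**Figure D2:**
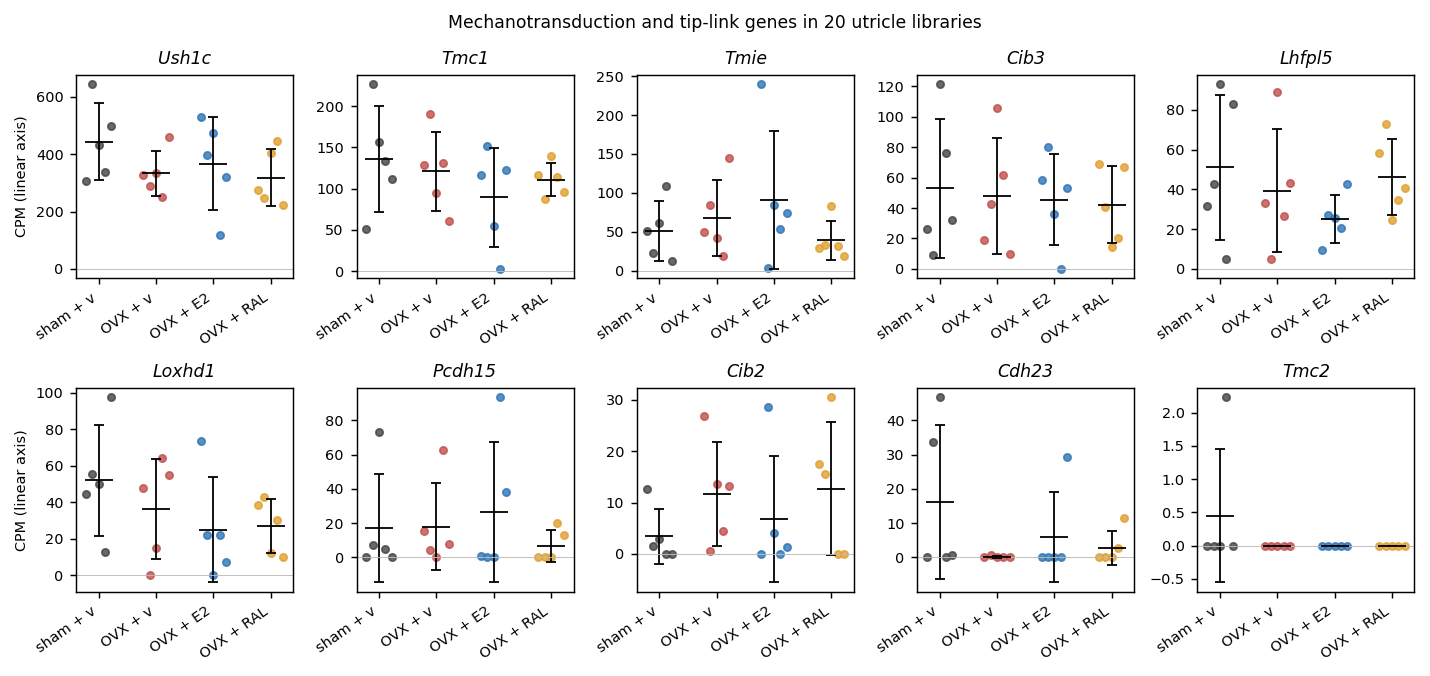
CPM of each of the 10 genes (linear vertical axes, one scale per gene) in the 4 groups on the horizontal axis, with 1 point per library, the mean as a horizontal line and the SD as the error bar (n = 5). The points of the groups overlap in every panel, as for *Ush1c* with means of 443, 333, 367 and 318 CPM, and *Pcdh15*, *Cib2* and *Cdh23* are at or near 0 in several libraries of most groups.

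The question put to these data was whether ovariectomy, or treatment with E2 or RAL after it, went with a change of these genes. None did so beyond the spread of the libraries. Of the 9 genes with at least 10 counts, 0 passed an adjusted p of 0.05 between sham + v and OVX + v, where 0.0145% of all 13825 tested genes did. The count was also 0 between OVX + E2 and OVX + v (0.0584% of 13695 genes), between OVX + RAL and OVX + v (0.0286% of 14002), between OVX + E2 and OVX + RAL (0.0727% of 13753) and over the 4 groups in 1 test (0.141% of 14870). With backgrounds this low, 0 of 9 does not set these genes apart from the rest. At an unadjusted p under 0.05, 1 of the 9 (*Cdh23*) was counted between sham + v and OVX + v and 0 in the other 3 comparisons, against 12.5%, 13.9%, 12.1% and 14.1% of all tested genes, and 0 over the 4 groups against 16.3%. *Cdh23* met the 10-count filter there through the sham + v group, mostly by replicates 2 and 3 (64 and 79 reads), against 1 read in OVX + v. Its unadjusted p thus rests on those libraries. DESeq2 and limma also called 0 of the 9 in each comparison, where a gene without an adjusted p from DESeq2 counted as not called. The levels of the paired groups overlapped for all 9, and across all genes 0.499%, 0.832%, 0.578% and 0.909% did not overlap.

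Described by their median, the log2 fold changes of the 9 genes were set beside those of all genes. In sham + v against OVX + v the median was 0.17 with 6 higher and 3 lower, beside -0.02 over all genes. In OVX + E2 it was -0.07 with 4 higher and 5 lower, beside -0.06, and in OVX + RAL -0.13 with 3 higher and 6 lower, beside -0.03. These 3 comparisons share the OVX + v libraries. OVX + E2 against OVX + RAL gave 0.11 with 5 higher and 4 lower, beside -0.01. Without *Cdh23*, the medians of the other 8 genes were 0.15 in sham + v, -0.25 in OVX + E2 and -0.16 in OVX + RAL against OVX + v, and 0.0041 in OVX + E2 against OVX + RAL. With TMM scaling the median over all genes moved from -0.06 to -0.17 in OVX + E2 against OVX + v and from -0.01 to -0.16 in OVX + E2 against OVX + RAL, and those of the 9 genes to -0.18 and -0.06. With a library left out, the median of the 9 genes ran from 0.040 to 0.37 in sham + v, from -0.37 to 0.15 in OVX + E2, from -0.24 to -0.059 in OVX + RAL and from -0.11 to 0.43 in OVX + E2 against OVX + RAL. On log2(CPM + 1) by limma it was -0.54 in OVX + E2 against OVX + v.

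**Figure D3:**
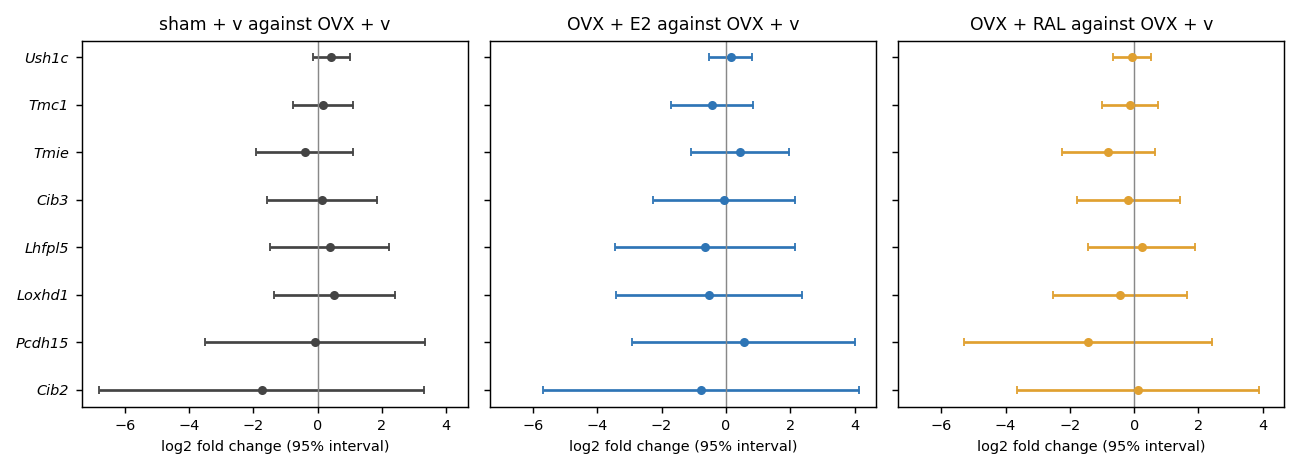
Log2 fold change of 8 genes against OVX + v (points) with the 95% interval (bars) from edgeR, for sham + v, OVX + E2 and OVX + RAL from left to right. All intervals cross 0, and those of *Ush1c* are the narrowest (-0.16 to 0.99 in sham + v). The widest are those of *Cib2* in sham + v (-6.80 to 3.30) and OVX + E2 and of *Pcdh15* in OVX + RAL (-5.30 to 2.41). *Cdh23*, with 1 read in OVX + v, and *Tmc2*, which was not tested, are left out.

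The spread between the libraries of a group is given beside that expected from counting reads alone, as a description. The coefficient of variation (CV) within groups was 33.6% for *Ush1c* and 44.7% for *Tmc1*, where counting alone would give 4.10% and 7.33%. For *Lhfpl5*, *Loxhd1*, *Cib3* and *Tmie* it was 65.6%, 74.6%, 75.6% and 89.1%, where counting would give 9.93% to 13.2%. *Cib2* had a CV of 122%, *Pcdh15* 171% and *Cdh23* 211%. For comparison, genes of all kinds had a median CV of 41.6% (quartiles 32.7% and 49.9%) over 1627 genes between 100 and 1000 CPM and of 95.2% (73.4% and 123%) over 7812 genes between 10 and 100 CPM. *Ush1c*, *Tmc1*, *Tmie*, *Cib3* and *Loxhd1* lay within the quartiles of their band, *Lhfpl5* below and *Pcdh15* above them, and *Cib2* and *Cdh23* were under 10 CPM and outside both bands. Each library was built from 1 ng of total RNA, and the part of this input in the spread was not tested.

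**Figure D4:**
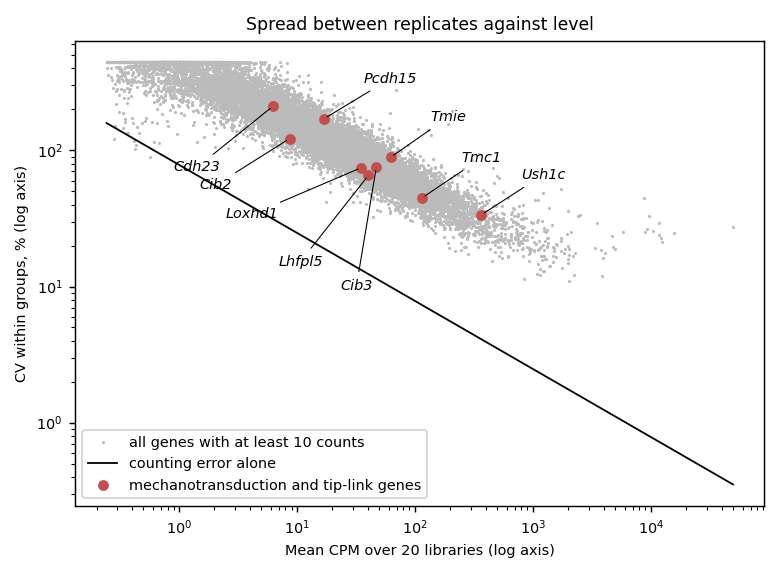
CV within groups in percent (vertical, log axis) against the mean CPM over 20 libraries (horizontal, log axis) for all genes with at least 10 counts (grey), with 9 of the genes in red and the CV of counting error alone as a line. The red points lie inside the grey cloud, from 33.6% at 365 CPM (*Ush1c*) to 211% at 6.27 CPM (*Cdh23*), and all are above the line.

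The levels of the genes were also set beside each other across libraries, as a description. Over the 36 pairs of the 9 genes, the Spearman correlation across the 20 libraries had a median of 0.02 and ran from -0.47 to 0.42, with 19 positive and 17 negative pairs. Without OVX + E2 replicate 14 the median was -0.01. Each library detected 6 to 9 of the 10 genes, with a median of 7. The sum of the 10 genes was 824 ± 226 CPM in sham + v, 675 ± 73.9 in OVX + v, 682 ± 255 in OVX + E2 and 605 ± 99.1 CPM in OVX + RAL, and ran from 309 CPM in OVX + E2 replicate 14 to 1044 CPM. *Ush1c* made up 37.8% to 69.8% of this sum, with a median of 50.0%.

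Marker genes of the cell types of the utricle were set beside this sum. Its Spearman correlation over the 20 libraries was 0.29 with the summed hair cell markers, 0.64 with the supporting cell markers and -0.46 with the melanocyte markers. Without OVX + E2 replicate 14 these were 0.39, 0.63 and -0.67. The muscle markers gave -0.41 (-0.59 without that replicate), macrophage markers -0.24 (-0.43), Schwann cell markers 0.23 (0.37), dark cell markers 0.33 (0.22), neuron markers 0.215 (0.084) and bone markers -0.029 (-0.18). In that replicate the hair cell markers summed to 1837 CPM, inside the range of 1167 to 2527 CPM of all libraries, while *Tmc1* had 3 counts and *Cib3* 0, and *Pcdh15* had 93.5 CPM, its highest value of the 20 libraries. The hair bundle partners described next summed to 606 CPM there, with 6 of 27 at 3 counts or more, against 626 to 1738 CPM and 11 to 20 genes in the other libraries, and the neuron markers to 67.7 CPM, both the lowest of the 20. The supporting cell markers, 9 of 9 of which were detected, summed to 1572 to 4506 CPM in sham + v, 2215 to 3474 in OVX + v, 2393 to 3853 in OVX + E2 and 1413 to 4009 CPM in OVX + RAL. *Otog* made up most of that sum, with a mean of 2782 of 3214 CPM in sham + v. The melanocyte markers, 5 of 5 of which were detected, summed to 328 to 1146, 524 to 1392, 479 to 1122 and 715 to 1621 CPM. Most of their sum was *Dct*, with a mean of 586 of 687 CPM in sham + v. The correlations with both sums thus rest largely on these genes and need not hold for other markers of the cell types. Of the marker genes of all these lists, 0 passed the threshold in any comparison by edgeR. At an unadjusted p under 0.05, which 12.5%, 13.9%, 12.1% and 14.1% of all tested genes met in sham + v, OVX + E2 and OVX + RAL against OVX + v and in OVX + E2 against OVX + RAL, 1, 0, 1 and 0 of the 12 hair cell markers were counted, *Calb2* both times. The Schwann cell markers, which come from myelinating cells of the nerve, were counted in 0, 2, 0 and 2 of 6, the melanocyte markers in 0, 1, 2 and 1, the bone markers in 2, 1, 1 and 1 and the muscle markers in 0, 2, 1 and 3. Neuron markers gave 1, 1, 0 and 2, dark cell markers 0, 0, 1 and 1, supporting cell markers 0, 0, 0 and 1, and macrophage markers 0 in each. All 6 Schwann cell markers had a higher fitted level in OVX + E2 than in OVX + v and than in OVX + RAL, beside 47.5% and 49.5% of all tested genes. These 6 mark 1 cell type and are not separate observations. Of them *Mbp* came nearest to the threshold, with a log2 fold change of 1.09 (SE 0.273) against OVX + RAL and an adjusted p of 0.0747 by edgeR. The libraries differ in depth and tissue composition, and the part of either in the sums and correlations was not tested. By the likeness rule, the genes of at least 10 CPM whose levels ranked most like the sum over the 20 libraries were *Vps39* (Spearman 0.80), *R3hdm2* (0.77), *Oxa1l* (0.74), *Tiam1* (0.71) and *Wdr45b* (0.70), the highest of 9526 genes ranked.

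The wider hair bundle was measured through 28 partner genes, of which 27 were in the tables. The highest were *Xirp2*, an actin-binding protein of stereocilia, at 170 CPM, *Rdx*, the radixin of the stereocilia base, at 161 CPM, *Espn*, the actin bundler espin, at 136 CPM, and *Atp2b2*, the calcium pump PMCA2, at 122 CPM. They were thus near *Tmc1* in level and below *Ush1c*. None of the partners passed the threshold, with 0 of 25, 0 of 23 and 0 of 22 tested in sham + v, OVX + E2 and OVX + RAL against OVX + v and 0 of 23 in OVX + E2 against OVX + RAL, and median log2 fold changes of 0.20, 0.010, -0.15 and -0.06. At an unadjusted p under 0.05, 6, 3, 2 and 3 of them were counted, beside 12.5%, 13.9%, 12.1% and 14.1% of all tested genes. *Atp2b2* had log2 fold changes of 0.25, -1.04 and -0.84 and *Xirp2* -0.74, 0.14 and -0.77 in the first 3 comparisons, none past the threshold.

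Paralogs of the 10 genes in the same families were also examined. Of 16 listed, 15 were in the tables, and *Tmc5*, *Cib4*, *Cdhr2* and *Cdhr5* had no count in any library. *Lhfpl2* was the highest at 41.0 CPM, near *Lhfpl5*, and was the only paralog above the median of the 10 genes, 37.7 CPM. Its log2 fold change in OVX + E2 against OVX + v was 1.78 (adjusted p = 0.612 by edgeR). No paralog passed the threshold in any of the comparisons, by edgeR, with 8 tested in sham + v, 10 each in OVX + E2 and OVX + RAL against OVX + v and 8 in OVX + E2 against OVX + RAL. Of these, 1, 4, 4 and 1 had an unadjusted p under 0.05, beside 12.5%, 13.9%, 12.1% and 14.1% of all tested genes. Their median log2 fold changes were -1.11, 0.13, -0.21 and 1.29 in the same order.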

How the data were processed

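Total RNA of mouse utricles was measured in 20 libraries, grouped by the treatment named in the labels, with replicates named by their library numbers. As the study's methods describe, the authors made the libraries from 1 ng of RNA with a 3′-end kit read for 75 cycles, trimmed adaptor, poly(A), low-quality ends and the first 12 nucleotides, dropped reads under 20 nucleotides and mapped the rest to GRCm39 in CLC Genomics Workbench with default settings. The version, the strand setting and the handling of reads with several matches are not given in the sources used here. The deposited total counts, the unit used here, are raw numbers of reads per gene without molecular identifiers, so floors cover counting error only. The deposited CPM, TPM and RPKM columns and the authors' fold changes and p-values were not used. The first of 3 stacked tables was used in one of the deposited files, and 0 columns belonged to other samples.

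CPM was computed from the total count of each library. Groups were compared with edgeR 4.0.16 in R 4.3.3 (glmQLFit and glmQLFTest, total count as library size, no TMM), each pair in a fit of its 10 libraries and all 4 groups in 1 F test, on genes whose counts summed to 10 or more. P-values were adjusted over all tested genes by Benjamini-Hochberg, with a threshold of 0.05. SE is the size of the log2 fold change over the square root of F, and 95% intervals follow the t distribution of the fit. The scripts were tested on simulated counts. Neighbouring levels were compared by sign-flip permutation (numpy 2.4.6, 100000 resamples, two-sided). Promoters were read from RefSeq tables of GRCm38.p6 and transcript ends from GENCODE vM39. Alternatives were TMM, DESeq2 1.42.0, no filter, edgeR's default filter, limma 3.58.1 on log2(CPM + 1) and log2(CPM + 0.1), the robust fit, a joint fit of the 4 groups, and the omission of each library in turn.

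The 10 genes and all lists were chosen with earlier results of these data known. Beside the 10 genes, the rule named the 4 partners of highest mean CPM, paralogs above the median of the 10 genes, and the 5 genes of at least 10 CPM with the highest Spearman correlation to the sum. The named hair cell markers, *Mbp* and the paralogs without counts were named after their values were seen, and so were chosen the order test, the count of libraries with both cadherins and the correlations without replicate 14.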

Additional observations from a re-analysis of the deposited data

Results flagged for a closer look

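In groups of 5 libraries, 9 of the 41 combinations of gene (or sum of the 10 genes) and group with differing values had 1 library whose gap to its nearest neighbour exceeded Dixon's 95% critical value of 0.71 of the range. Chance flags about 1 in 20 groups, here 2.05, and for genes at 0 in most libraries a single library with a count meets the criterion by construction. *Tmie* stood out in OVX + RAL replicate 18, with 82.8 CPM against 18.7 to 32.9 CPM in the others of its group. *Pcdh15* stood out in sham + v replicate 3 (72.9 CPM, others at most 7.35) and in OVX + v replicate 9 (62.4 CPM, others at most 15.6). *Cib2* stood out in sham + v replicate 1 (12.7 CPM, others at most 2.96) and in OVX + E2 replicate 12 (28.7 CPM, others at most 4.01). *Cdh23* was carried by OVX + E2 replicate 15 (29.5 CPM, others at 0), by OVX + RAL replicate 20 (11.5 CPM, others at most 2.62) and by a single read in OVX + v replicate 7 (0.627 CPM). *Tmc2* was found in sham + v replicate 4 (2.24 CPM, from 4 counts). The cause of these values was not tested.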

How the results depend on the processing

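No gene of the 10 passed the threshold under any setting in which it was tested: the count stayed at 0 in all 99 alternatives of the 5 comparisons, and the smallest adjusted p of any gene was 0.362. Not all 10 were tested in each setting. The default filter of edgeR kept 7 in sham + v against OVX + v, and *Tmc2* was tested only without a filter. Of 638 refitted fold changes, 584 kept their sign and 54 changed it, all short of the threshold in every fit, and the cause was not tested. No paired analysis was possible because the replicate numbers are not shared between groups. At these depths a gene with under 3 counts in a library cannot be told from one at 0, which applied to *Cib2*, *Cdh23*, *Pcdh15* and *Tmc2* in many libraries.

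The number of genes past the threshold among all tested, 2 in sham + v against OVX + v, was 1 with TMM or DESeq2, 0 with edgeR's default filter, the robust fit or limma on log2(CPM + 0.1), 4 with limma on log2(CPM + 1), and 1 to 10 with a library left out, 10 without replicate 1. In OVX + E2 against OVX + v the 8 genes became 35 with DESeq2, 1 with the default filter, 3 with limma on log2(CPM + 0.1), 4 with the robust fit and 6 to 17 with a library left out, 17 without replicate 11. In OVX + RAL against OVX + v the 4 genes became 0 with the default filter, limma on log2(CPM + 0.1) or the robust fit and 3 to 11 with a library left out, 11 without replicate 16, 9 without replicate 20 and 8 without replicate 7 or 18. The 10 genes of OVX + E2 against OVX + RAL became 42 with DESeq2, 0 with the default filter, 2 with limma on log2(CPM + 0.1), 6 with the robust fit, 16 with all 4 groups in 1 fit and 8 to 16 with a library left out, 16 without replicate 11.

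Log2 fold changes that changed sign in OVX + E2 against OVX + v were those of *Tmie* (-0.091 with limma on log2(CPM + 1), -0.13 on log2(CPM + 0.1)) and *Pcdh15* (-0.60 and -1.40). In OVX + RAL against OVX + v they were *Cib2* (-0.48 and -1.52), *Cib3* (0.0024 and 0.0093) and *Loxhd1* (0.30 and 0.93). In OVX + E2 against OVX + RAL they were *Cib3* (-0.056 with TMM, -0.55 and -1.19 with limma) and *Cdh23* (-0.12 and -0.68), and limma moved the median of the 9 genes to -0.55 and -0.94.

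With a library left out, changes of sign in sham + v against OVX + v were met in *Tmc1* (-0.10 to 0.38), *Tmie* (-0.89 to 0.069), *Cib3* (-0.42 to 0.66) and *Pcdh15* (-2.51 to 1.30). In OVX + E2 against OVX + v these were *Tmie* (-0.33 to 0.90), *Cib3* (-0.37 to 0.45), *Pcdh15* (-0.90 to 1.92) and *Ush1c* (-0.029 to 0.37). In OVX + RAL against OVX + v they were *Tmc1* (-0.30 to 0.088), *Lhfpl5* (-0.055 to 0.77), *Cib2* (-0.50 to 0.67), *Cib3* (-0.44 to 0.34) and *Ush1c* (-0.21 to 0.082), and in OVX + E2 against OVX + RAL *Tmc1* (-0.58 to 0.0094), *Cib3* (-0.19 to 0.43), *Loxhd1* (-1.06 to 0.22) and *Cdh23* (-5.25 to 3.02). The -5.25 is without OVX + E2 replicate 15, which leaves *Cdh23* at 0 in the OVX + E2 group, so it depends on the prior count and is no measure of a fold.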

Other observations

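The summed paralogs of the 10 genes reached 255 ± 47.7 CPM in the OVX + E2 group, from 198 to 326 CPM, and 124 ± 34.4 CPM in the OVX + RAL group, from 89.4 to 181 CPM, so that these groups did not overlap, while the sham + v (137 ± 72.2 CPM) and OVX + v groups (162 ± 62.4 CPM) lay between 46.4 and 211 CPM. This difference was noticed in the values and was not tested. The OVX + E2 and OVX + RAL groups also did not overlap in total counts (1123053 to 1507667 against 1702313 to 2081747) or in genes with a count (7427 to 9680 against 10103 to 10290), the Schwann cell markers summed to 3223 ± 1056 against 1818 ± 235 CPM and the muscle markers to 13.7 ± 15.5 against 151 ± 196 CPM, and their part in it was not tested.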
